A study of Mus musculus with 2 samples.

Results

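The genes described here are 10 members of the oxygen-sensing pathway, of the 49492 genes counted. They were taken by symbol and comprise the oxygen-regulated subunits Hif1a and Epas1, the prolyl hydroxylases Egln1 and Egln3, and 6 target genes that act outside glycolysis, namely Vegfa, Adm, Car9, Bnip3, Ndrg1 and Ankrd37. The RNA came from mouse primary mammary basal cells, sorted by FACS from wild-type (WT) adult females and grown as colonies/organoids in 3D culture. The control library, Basal_ctrl, was labelled with no treatment, and the other, Basal_Tnfa, came from cells kept for 10 days with recombinant mouse TNF-α at 10 ng/mL, a cytokine made in the gland by macrophages among other cells. How long the control was cultured is not stated separately, so treatment and any difference in culture time cannot be told apart. The number of animals behind each culture is not given in the sources used here. There was 1 library per condition, so no difference has a replicate check, no test between the conditions could be made and no p-value is given.

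Cells sense oxygen through hypoxia-inducible factors (HIF). A HIF-α subunit, such as those encoded by Hif1a and Epas1, is hydroxylated by the EGLN prolyl hydroxylases while oxygen is present, is then bound by the VHL ubiquitin ligase and is degraded. When oxygen is short the protein persists, pairs with the stable subunit encoded by Arnt and binds a short DNA core, read as ACGTG or GCGTG, at target genes. This control acts mostly on the protein, which RNA counts do not show. In the mammary gland, HIF activity is known from the growth of the lactating gland and from oxygen-poor tumours.

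In the TNF-α library 5 of the 10 genes lay more than 2-fold higher than in the control, 0 lay more than 2-fold lower, and the genes of both HIF-α subunits were lower. The 5 were Egln3, Vegfa, Bnip3, Car9 and Ankrd37, at 3.47-fold to 5.14-fold. For comparison, 20771 genes reached 10 counts over both libraries, and of these 8.56% lay more than 2-fold higher and 6.62% more than 2-fold lower. All 10 members had at least 10 counts. Of the 8 members with at least 1000 counts, 4 lay more than 2-fold higher, against 2.65% of the 9345 genes counted as well, and 0 lay more than 2-fold lower, against 2.02%. Egln3 and Car9 reach 1000 counts only through the TNF-α library, where they are higher, so 2 of these 4 are in that set because of the difference itself. The members were chosen with earlier results of these data known, so these shares describe the members and test nothing. Their median log2 ratio was 1.31, beside 0.0038 over all genes with at least 10 counts.

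Depth was 44462275 counts for the control and 53487087 with TNF-α, and after TMM scaling the effective size of the former was taken as 1 and that of the latter as 1.20. Levels are given as CPM, the count scaled to 1000000 counts per library, and between genes as CPM per kilobase of summed exon length (RPKM). A count of 10 is worth 0.224 CPM in the control and 0.187 CPM with TNF-α. Each ratio has a 95% interval, computed by the exact Clopper-Pearson method from the gene's counts in both libraries. They show counting error alone: reads copied by PCR were not traced to single molecules, and differences between cultures are not in them. Many rarely counted genes had even counts (2172 genes with 2 counts in the control and 618 with 1), a pattern that counting both ends of a read pair would leave, so an interval from counts divided by 2 is given where it matters. The 11 reference genes, such as Actb and Hprt, lay between -0.28 and 0.32 on the log2 scale.

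The windows around the transcription starts of the members were searched for the HIF core, because the target genes among them are known as HIF targets. RefSeq (GRCm38.p6) gave windows of 300 bases, 250 before the start and 50 after it, for 8 of the 10 genes, with 2 starts for Vegfa. Epas1 and Ndrg1 had no window and were not searched. The letters ACGTG, read on either strand, occur in 19.6% of all 32851 such windows, and GCGTG in 32.4%. ACGTG was found in windows of 7 of the 8 genes, for Vegfa only in that of the second start, whereas these shares are of windows. GCGTG was found in windows of Egln1, Vegfa (second start), Adm, Bnip3 and Ankrd37. The stretches that hold ACGTG are shown from 5′ to 3′ on the strand of the gene, with ACGTG or its reverse complement CACGT in capitals. Matches to GCGTG are left in lower case. CACGTG holds ACGTG on both strands.
Bnip3 (chr7:138909597-138909626, minus strand): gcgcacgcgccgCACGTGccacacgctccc
Car9 (chr4:43506996-43507024, plus strand): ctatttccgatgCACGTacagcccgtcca
Ankrd37 (chr8:45999840-45999868, minus strand): cagtgtttgggtACGTGaggccgcagcgg
Ankrd37 (chr8:46000075-46000100, minus strand): cccagcagtACGTGcctagctcggct
Egln3 (chr12:54204087-54204115, minus strand): tgtgcatctcagACGTGagatccaggttt
Egln1 (chr8:124949306-124949334, minus strand): gggccgtggtgtACGTGcagcgcgcgcgg
Hif1a (chr12:73907720-73907749, plus strand): cacacagacaagCACGTGagcggggcagct
Hif1a (chr12:73907785-73907813, plus strand): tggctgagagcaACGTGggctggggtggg
Vegfa, second start (chr17:46025358-46025386, minus strand): ggagtgcgtgccCACGTcagagagcaaca
On either strand, ACGTG began 18 bases before the start in Car9, 6 and 241 bases before it in Ankrd37 and 108 in Bnip3. It began 68 bases before the start in Egln1, 229 in Egln3, 135 and 70 in Hif1a, and 211 before the second start of Vegfa. Vegfa had no ACGTG or GCGTG in the window of its first start, which says only that these letters are not in those 300 bases, and 1 of each in the window of its second start, which lies inside the gene. The starts used for Hif1a (73907867) and Ankrd37 (45999850) also lie well inside the span that the deposited table gives these genes. Those used for Egln1 (124949254) and Car9 (43507026) lie inside it too, nearer its edge. The ACGTG matches of all these genes thus fall within the deposited spans, not upstream of them. The Adm window held 2 matches to GCGTG and none to ACGTG. Hif1a, which was lower with TNF-α, thus held the same letters as targets that were higher, and no member's level was read from a match. To show the setting of such a core, the 237 bases upstream of Bnip3, up to the first exon base in the deposited table, are given in full. They also hold 3 matches to GCGTG on either strand, in lower case.
Bnip3 (chr7:138909520-138909756, minus strand): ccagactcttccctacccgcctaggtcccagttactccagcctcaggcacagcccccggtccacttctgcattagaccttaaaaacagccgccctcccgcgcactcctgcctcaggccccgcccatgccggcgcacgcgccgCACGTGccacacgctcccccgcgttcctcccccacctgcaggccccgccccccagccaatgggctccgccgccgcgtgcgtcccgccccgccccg

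The genes of both HIF-α subunits were lower in the TNF-α library. Hif1a, which encodes the most widely expressed HIF-α subunit, had 15581 counts in the control and 9920 with TNF-α, or 350 and 186 CPM. Its level was 1.88-fold lower with TNF-α, a log2 ratio of -0.91 (95% interval -0.95 to -0.87), and only 2.44% of the genes with at least 1000 counts had a ratio as low or lower. It lies on chromosome 12 of GRCm38 from 73901375 to 73947530. Epas1, which encodes the HIF-α subunit best known from endothelial cells and from the control of erythropoietin, had 3149 counts in the control and 2302 with TNF-α, or 70.7 and 43.1 CPM. It was 1.64-fold lower, a log2 ratio of -0.71 (95% interval -0.79 to -0.63), and lies on chromosome 17 from 86753907 to 86833410. Neither gene reached the 2-fold limit. At a limit of 1.5-fold they were the 2 members that lay lower, beside 13.7% of all genes and 5.67% of those with at least 1000 counts, while 6 members lay higher, 4 of them with at least 1000 counts, beside 15.5% and 6.88%. Per length, Hif1a was 4.46 times as abundant as Epas1 in the control library (95% interval 4.29 to 4.63) and 3.88 times with TNF-α (95% interval 3.71 to 4.06), a ratio within a library that does not depend on scaling. Hif1a thus remained the main subunit gene, with 81.6% of the summed RPKM of the HIF-α genes in the control and 79.5% with TNF-α, while Hif3a had 6 and 2 counts.

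**Figure D1:**
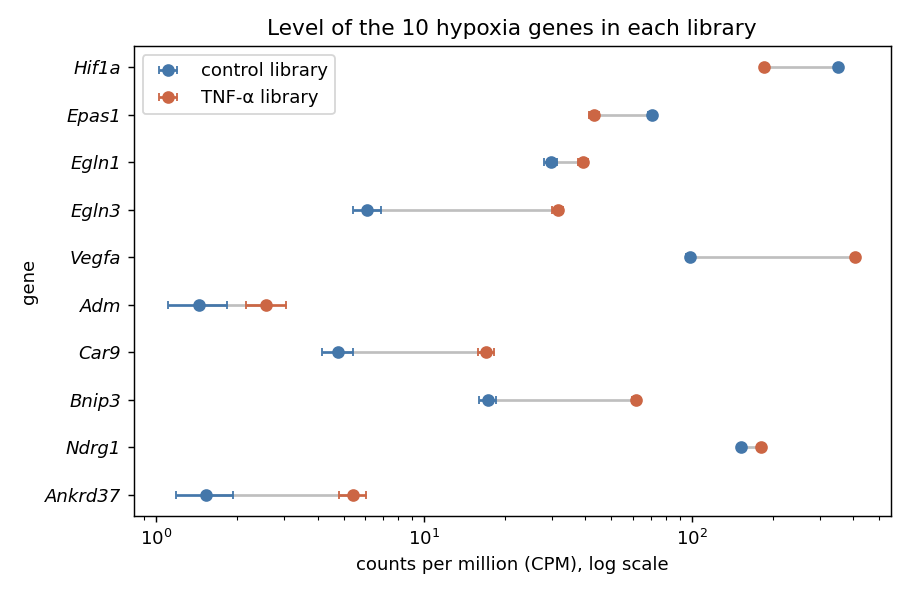
Level of each of the 10 genes in the control library (blue) and the TNF-α library (orange), in CPM on a log axis, with bars for the 95% Poisson interval of the count. Hif1a and Epas1 are the genes whose TNF-α point lies left of the control point, and Vegfa passes from 98.0 to 404 CPM.

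The prolyl hydroxylase genes were both higher with TNF-α, by different amounts. Egln3, which encodes a hydroxylase that is itself a strong HIF target, had 272 counts in the control and 1683 with TNF-α, or 6.10 and 31.5 CPM. At 5.14-fold it had the highest ratio of the 10 genes, a log2 ratio of 2.36 (95% interval 2.18 to 2.56). It lay at percentile 98.1 of the genes with at least 10 counts. It lies on chromosome 12 from 54178981 to 54203860. Egln1, which encodes the hydroxylase that sets HIF-α levels in most tissues, had 1322 and 2093 counts, or 29.7 and 39.2 CPM. This is a 1.32-fold higher level and a log2 ratio of 0.40 (95% interval 0.30 to 0.50), under the 1.5-fold limit. Egln1 lies on chromosome 8 from 124908587 to 124949324. Per length, Egln3 stood at 0.278 of Egln1 in the control library (95% interval 0.243 to 0.317) and at 1.09 times Egln1 with TNF-α (95% interval 1.02 to 1.16, and 0.990 to 1.19 from halved counts). Egln2, the third gene of the family, had 2155 and 2263 counts and a log2 ratio of -0.19. Egln3 took 8.24% of the summed RPKM of these hydroxylase genes in the control and 31.3% with TNF-α, and the share of Egln2 passed from 62.1% to 40.0%.

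Of the secreted factors, Vegfa was much more abundant than Adm and differed more. Vegfa encodes the growth factor that draws blood vessels into growing or oxygen-poor tissue. It had 4366 counts in the control and 21584 with TNF-α, or 98.0 and 404 CPM, a 4.13-fold higher level and a log2 ratio of 2.05 (95% interval 1.999 to 2.09). It lies on chromosome 17 from 46016993 to 46032369 and stood at percentile 99.4 of the genes with at least 1000 counts. With TNF-α Vegfa passed Hif1a as the member with the highest RPKM. Adm encodes adrenomedullin, a peptide that widens blood vessels. It was rarely counted, with 64 counts in the control and 137 with TNF-α, or 1.44 and 2.57 CPM, a log2 ratio of 0.82 whose 95% interval runs from 0.40 to 1.29. Whether Adm (chromosome 7, 110627661 to 110629820) passed 2-fold was not detectable at this depth.

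Car9 and Bnip3 had nearly the same ratio. Car9 encodes a carbonic anhydrase on the cell surface that helps cells with high acid output to keep their internal pH. It had 212 counts in the control and 908 with TNF-α, or 4.76 and 17.0 CPM, a 3.56-fold higher level and a log2 ratio of 1.83 (95% interval 1.62 to 2.06). It lies on chromosome 4 from 43506966 to 43513729. Bnip3 encodes a mitochondrial outer membrane protein that marks mitochondria for removal by mitophagy. It had 768 counts in the control and 3286 with TNF-α, or 17.2 and 61.6 CPM, a 3.57-fold higher level and a log2 ratio of 1.83 (95% interval 1.72 to 1.95). It lies on chromosome 7 from 138890836 to 138909519. These genes stood at percentile 96.9 of the genes with at least 10 counts.

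Ankrd37 and Ndrg1 stood apart from each other. Ankrd37, which encodes a small ankyrin-repeat protein of little known function, had 68 counts in the control and 288 with TNF-α, or 1.53 and 5.40 CPM, a 3.47-fold higher level and a log2 ratio of 1.80 (95% interval 1.44 to 2.23). It lies on chromosome 8 from 45996902 to 46005707. Ndrg1, which encodes a stress-responsive protein used as a hypoxia marker in many epithelia, had 6808 counts in the control and 9664 with TNF-α, or 153 and 181 CPM. Its log2 ratio was 0.25 (95% interval 0.20 to 0.29), a 1.19-fold higher level, at percentile 79.6 of the genes with at least 1000 counts. The interval of Ndrg1 (chromosome 15, 66929321 to 66969640) lay below those of the other 5 target genes, although from halved counts it (0.18 to 0.31) overlapped that of Adm (0.20 to 1.48). The targets were therefore not higher to a common extent, and the one with the most counts in the control had the ratio nearest to 1.

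**Figure D2:**
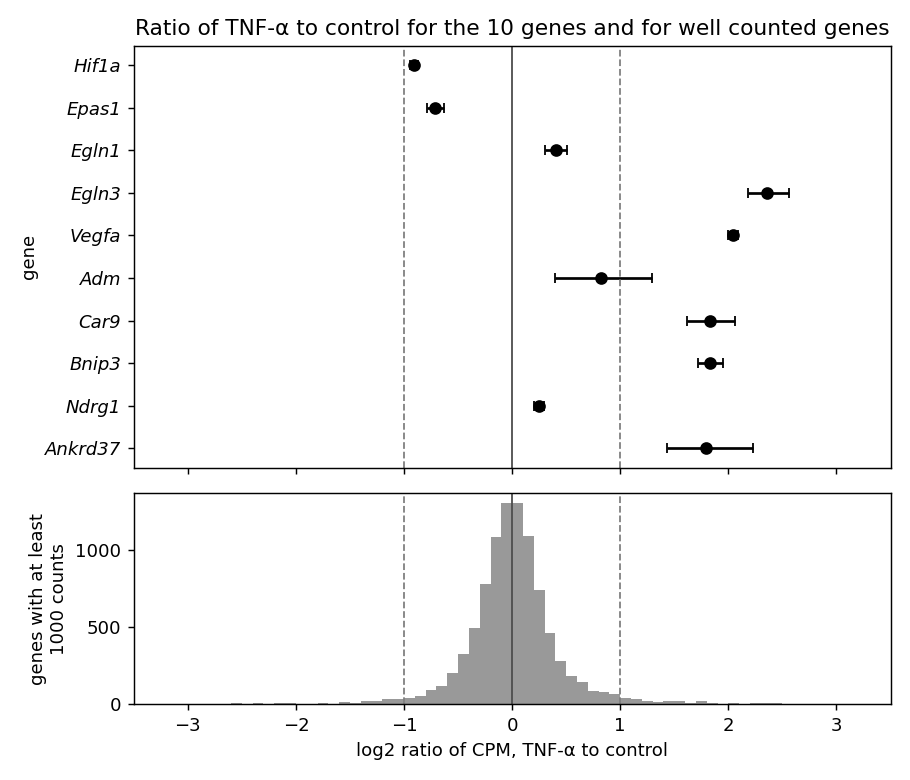
Top, log2 ratio of CPM in the TNF-α library to the control library for the 10 genes, with bars for the 95% interval of counting error. Bottom, number of genes per step of 0.1 in the same ratio among the 9345 genes with at least 1000 counts (x axis limited to 3.5 either side of 0), with dashed lines at 2-fold. Egln3, Vegfa, Car9, Bnip3 and Ankrd37 lie right of the upper line, and Hif1a and Epas1 lie left of 0.

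The order of the members by level per length differed between the libraries. In the control it ran from Hif1a at 59.3 RPKM through Ndrg1 (23.2), Vegfa (22.9), Epas1 (13.3), Egln1 (8.25), Bnip3 (7.61), Egln3 (2.29), Car9 (2.06) and Ankrd37 (0.991) to Adm (0.887). Within this order Ndrg1 and Vegfa, Egln1 and Bnip3, Egln3 and Car9, and Ankrd37 and Adm did not differ beyond counting error. With TNF-α it ran from Vegfa at 94.4 RPKM through Hif1a (31.5), Ndrg1 (27.5), Bnip3 (27.2), Egln3 (11.8), Egln1 (10.9), Epas1 (8.13), Car9 (7.39) and Ankrd37 (3.51) to Adm (1.59). There Ndrg1 and Bnip3 did not differ beyond counting error, nor, from halved counts, did Egln3 and Egln1 or Epas1 and Car9.

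Some members share exon bases with genes on the opposite strand, and whether counting used the strand is not given in the sources used here. The exons of Bnip3 overlap Gm45507 over 22.3% of their length, and Gm45507 had 63 counts in the control and 300 with TNF-α. Those of Hif1a overlap Gm15283 over 5.60%, and Gm15283 had 4324 and 2368 counts. In both pairs the antisense gene differed in the same direction as the member, and reads from the 2 genes cannot be told apart without strand. Car9 overlaps Gm12454 over 9.29% (67 and 151 counts), Ndrg1 overlaps Gm17035 over 6.36% (513 and 754 counts) and Gm2895 over 2.08% (212 and 318 counts). Ankrd37 overlaps Lrp2bp over 22.7% (24 and 44 counts) and Ufsp2 over 3.70% (1521 and 1847 counts). Their part in the member's counts was not tested. Epas1, Egln1, Egln3, Vegfa and Adm shared no exon base with another gene in the table.

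The ratios of the rest of the HIF machinery lay within 2-fold, with 1 gene past 1.5-fold. Of 18 genes listed, 17 reached 10 counts, and their median log2 ratio was -0.12. Of these 17, 0 lay past 2-fold in either direction, beside 8.56% higher and 6.62% lower over all genes with at least 10 counts. Most of the 17 had at least 1000 counts, and among all such genes the shares were 2.65% and 2.02%. A count of 0 among 17 is close to these shares and is no trait of the list. Arnt, the gene of the partner subunit, had 4698 counts in the control and 4719 with TNF-α, a log2 ratio of -0.25. Vhl, which encodes the subunit that recognises hydroxylated HIF-α, had 299 and 329 counts and a log2 ratio of -0.12. Hif1an, which encodes an asparagine hydroxylase that limits HIF-α activity, had 2270 and 2391 counts and a log2 ratio of -0.18. The highest was Tceb1 at 0.92 (824 and 1868 counts, 95% interval 0.80 to 1.04), which encodes elongin C of the VHL ligase. Whether Tceb1 passed 2-fold was not detectable at this depth. The lowest was Usp20 at -0.52 (694 and 577 counts, 95% interval -0.69 to -0.36), which encodes a deubiquitinase. Hif1a lay below all 17 genes, and the interval of Epas1 overlapped that of Usp20.

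**Figure D3:**
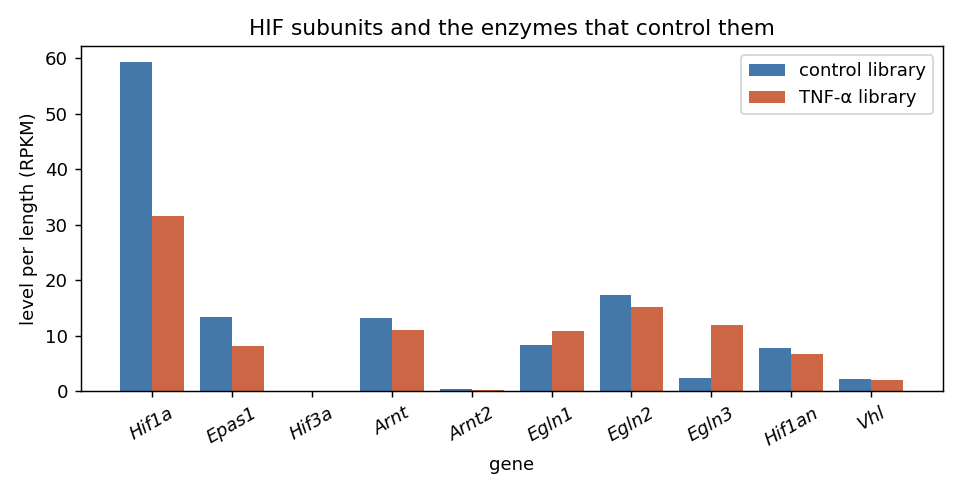
Level per length (RPKM) of the HIF subunit genes, the prolyl hydroxylase genes, Hif1an and Vhl in the control library (blue) and the TNF-α library (orange), 1 library each and so without error bars. Hif1a passes from 59.3 to 31.5 and Egln3 from 2.29 to 11.8, while Arnt, Egln2, Hif1an and Vhl are slightly lower with TNF-α.

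Of a further 33 HIF target genes outside glycolysis, most lay higher with TNF-α and some lower. Their median log2 ratio was 0.38, with 23 above 0, 5 more than 2-fold higher and 2 more than 2-fold lower. Over all genes with at least 10 counts the median was 0.0038, and 50.6% lay above 0. Of those genes 8.56% lay more than 2-fold higher and 6.62% more than 2-fold lower. Among genes with at least 1000 counts, as most of the 33 had, these shares were 2.65% and 2.02%. The 2 of 33 that lay more than 2-fold lower are close to the 6.62% and are no trait of the list. P4ha1 and P4ha2, which encode the catalytic subunits of collagen prolyl hydroxylases, had log2 ratios of 1.48 (1538 and 5153 counts) and 1.52 (556 and 1907 counts). Loxl2, a lysyl oxidase gene, was the highest at 1.75 (373 and 1509 counts). Other genes of collagen modification in the list did not pass 2-fold, with Plod2 at 0.88 (1113 and 2453 counts), Lox at 0.54 (582 and 1014 counts) and Plod1 at -0.06 (2678 and 3068 counts). Trf, the gene of the iron carrier transferrin, stood at 1.63 (7737 and 28764 counts). The 2 that lay more than 2-fold lower were Tmem45a and Ppp1r3c. Tmem45a, of a membrane protein of epidermis, stood at -1.60 (433 and 170 counts). Ppp1r3c, which encodes a regulator of glycogen synthesis, stood at -1.42 (1064 and 474 counts).

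The partners of Vegfa were mostly less counted. Vegfa took 46.9% of the summed RPKM of 5 VEGF ligand genes in the control library and 78.6% with TNF-α, while Pgf, the placental growth factor gene, had 21.7 and 22.3 RPKM. Among 9 other ligand and receptor genes the median log2 ratio was 0.43. Nrp2, which encodes the co-receptor neuropilin-2, was the highest at 1.84 (1153 and 4939 counts). Vegfd was the lowest at -1.08 (149 and 83 counts, 95% interval -1.51 to -0.71). Whether Vegfd passed 2-fold was not detectable at this depth. The receptor genes Flt1 and Kdr had 467 and 64 counts in the control and 999 and 62 with TNF-α. For adrenomedullin, Calcrl, which encodes the receptor, had 64 and 74 counts, and its accessory gene Ramp2 had 1695 and 2019. The lowest of the 5 genes of that list with at least 10 counts was Ramp3 at -0.60 (6 and 4 counts). Adm2 was the highest, with 2 counts in the control and 38 with TNF-α, a log2 ratio of 3.13 with a 95% interval from 2.04 to 7.09.

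The relatives of Car9, Bnip3 and Ndrg1 were set beside them. Car9 took 10.2% of the summed RPKM of the carbonic anhydrase genes in the control library and 30.4% with TNF-α. Car12, which encodes another carbonic anhydrase of the cell surface that is listed among HIF targets, was lower, with 2304 and 1931 counts and a log2 ratio of -0.51. Of the 13 other carbonic anhydrase genes with at least 10 counts, 2 lay more than 2-fold higher and 2 lower. Over all genes with at least 10 counts the shares were 8.56% and 6.62%. Of the listed genes past 2-fold, only Car8 had at least 200 counts. It stood at -2.13 (207 and 55 counts) and encodes a protein without enzyme activity. The other lower gene was Car10 (16 and 4 counts). The 2 higher ones, Car3 and Car6, each had 10 counts with TNF-α against 0 in the control, at least 2.78-fold higher if the control is set at a floor of 3 counts per library. The lower 95% limit of their log2 ratio was 0.90, and -0.39 from halved counts, so a difference was not detectable if both read ends were counted. Bnip3l, which encodes the other mitophagy receptor of this kind, had 3758 and 6107 counts and a log2 ratio of 0.44, the highest of 13 mitophagy genes outside Bnip3. The median of those genes was -0.00015, and the lowest was Park2 at -1.16 (86 and 45 counts), which encodes the ubiquitin ligase parkin. Per length, Bnip3 made up 25.8% of the sum of Bnip3 and Bnip3l in the control and 47.8% with TNF-α. Ndrg2, Ndrg3 and Ndrg4 had log2 ratios of 0.23, -0.35 and -0.03. That of Ndrg2 (95% interval 0.05 to 0.42, and -0.03 to 0.51 from halved counts) was close to that of Ndrg1. Ndrg1 held 73.7% and 76.7% of the summed RPKM of the family.

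**Figure D4:**
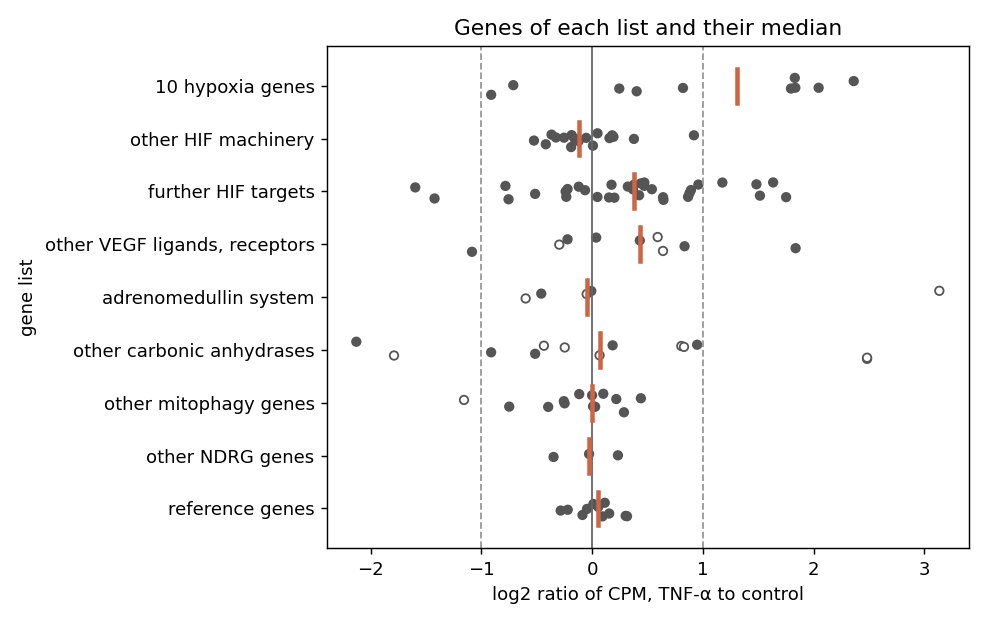
Log2 ratio of CPM in the TNF-α library to the control library for each gene with at least 10 counts, by list, with filled points for at least 200 counts over both libraries, open points for fewer, and an orange bar for the median. Dashed lines mark 2-fold, the overlapping points at 2.48 are Car3 and Car6, whose control count is 0 and whose place depends on the prior count, and the medians lie at 1.31 for the 10 genes, 0.38 for further HIF targets and -0.12 for other HIF machinery.

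Markers of the cell types in the cultures were set beside these values. In the paper's FACS, untreated colonies grown from sorted basal cells consisted mainly of luminal cells. It also reports a higher proportion of basal cells in cultures with TNF-α, so the libraries are not RNA of basal cells alone. The 6 basal markers summed to 11472 CPM in the control and 10497 with TNF-α, with Krt14 the most abundant at 5155 and 4871 CPM. The 10 luminal markers summed to 4359 and 3507 CPM, with 9 lower, 3 of them by more than 2-fold (Esr1, Pgr and Prlr), and Krt8 the most abundant at 1213 and 1132 CPM. The 8 endothelial markers summed to 30.8 and 19.3 CPM, of which Erg gave 22.7 and 11.9 CPM, Pecam1 had 117 and 114 counts, and Emcn had 0 and 4. The 5 fibroblast markers summed to 293 and 258 CPM, led by Col3a1 at 126 CPM in the control and Col1a1 at 119 CPM with TNF-α. The 5 leukocyte and macrophage markers summed to 5.63 and 4.42 CPM, with Csf1r the most abundant at 2.06 and 1.52 CPM and Adgre1 at 0 and 2 counts. Past 2-fold were also Oxtr of the basal list (241 and 106 CPM), Cldn5 of the endothelial list (16 and 2 counts) and Dcn of the fibroblast list (4.13 and 10.9 CPM). The sums of all 5 lists were lower with TNF-α, from 1.09-fold for basal markers to 1.60-fold for endothelial ones. Single markers went both ways: 2 of 6 basal, 2 of 8 endothelial, 3 of 5 fibroblast and 2 of 5 leukocyte and macrophage markers were higher. In the fibroblast list Col3a1, at 126 and 79.6 CPM, was lower while most of the others were not. The part of these cell types in the results was not tested. In bulk RNA, fewer cells of a type and less RNA per cell cannot be told apart.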

How the data were processed

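Total RNA of colonies/organoids was sequenced on a HiSeq X 10 instrument, with 1 control and 1 TNF-α library. The series title calls the data microarray, its type and files are sequencing, and the labels and the study's methods name different RNA kits. The authors deposited read counts per gene, not normalized, with exon coordinates and summed exon lengths of 49492 genes. The builds GRCm38 and mm10 stand in the submitters' processing notes; the aligner, counter and annotation are not given in the sources used here. Of 47139 gene names shared with GENCODE M21, 91.0% had the same chromosome, start and end, as had 8 of the 10 members.

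From these counts, library sizes were scaled by TMM (edgeR 4.0.16, R 4.3.3), and log2 ratios of CPM used a prior count of 2 and genes with at least 10 counts over both libraries. Without replicates there was no spread for the quasi-likelihood test of edgeR, so genes are described by folds over 2 or 1.5 and by Clopper-Pearson intervals. RPKM was computed from the deposited lengths. The calculation was run on simulated data that held counting error only, so it says nothing of differences between cultures. In that run 308 genes given no change lay past 2-fold, among 20678 genes, and 0 of the 308 were well counted (at least 1000 counts). Its counts were drawn singly, so 308 may be too low if both ends of a read pair were counted. Named genes are the 10 members, the highest and lowest of each other list, genes past 2-fold with at least 200 counts in those lists, and the most abundant of each marker list, except 1 gene of the further HIF targets that is not reported here. Named outside this rule, after their values were seen, are the overlapping antisense genes and Arnt, Vhl, Hif1an, Hif3a, Egln2, Pgf, Flt1, Kdr, Calcrl, Ramp2, Car6, Car12, Ndrg4, Emcn, Adgre1, Pecam1, Oxtr, Dcn, Cldn5, Esr1, Pgr, Prlr, Car10, Plod1, Plod2, Lox, Actb and Hprt. Members and lists were chosen with earlier results of these data known. Alternatives were total counts, DESeq2 1.42.0 size factors, upper quartile scaling, prior counts of 0.5 and 5, halved counts, thinning, other filters and a fold of 1.5. Python 3.11.15 was used with numpy 2.4.6, pandas 2.3.3, scipy 1.17.1 and matplotlib 3.10.9.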

Additional observations from a re-analysis of the deposited data

How the results depend on the processing

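No paired analysis was possible because control and TNF-α had a single library each, which also leaves nothing to omit in turn. Under 7 alternatives of scaling, prior count, halved counts and thinning, the log2 ratio of each of the 10 members stayed within its interval of counting error. Vegfa lay between 2.04 and 2.05 and Hif1a between -0.92 and -0.90, and scaling shifted the members by -0.0089 to -0.0032. With a fold of 1.5 in place of 2, 6 members lay higher (Adm added), beside 15.5% of all genes, and 2 lower, beside 13.7%.

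Among all genes, 1777 lay more than 2-fold higher and 1375 lower. A fold of 1.5 gave 3210 and 2846, no filter gave 2679 and 2996, and at least 1 CPM in a library gave 836 and 658, since the limit or the genes included differ. The median of the other VEGF genes, 0.43, was 0.23 with at least 1 CPM. That of the other carbonic anhydrase genes, 0.068, was -0.33 with halved counts, -0.11 after thinning and -0.47 with at least 1 CPM so its sign depends on these settings, and the cause was not tested. Depth limits Adm and Ankrd37 most. From halved counts their intervals ran from 0.20 to 1.48 and from 1.28 to 2.41.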
